A study of Mus musculus with 6 samples.

Results

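Joining segments are the short coding pieces that complete the variable domain of an antibody chain, and the deposited table of primary ovarian tumors lists all 9 of those looked for, the 4 of the heavy chain (*Ighj1* to *Ighj4*) and the 5 of the kappa light chain (*Igkj1* to *Igkj5*), among its 20076 genes. They were taken by symbol, and the set was selected on an earlier measured difference between knockout and WT tumors. Bulk RNA had been prepared from primary tumors that grew for 6 weeks in 3 wild-type (WT) hosts, C57BL/6 mice, and in 3 hosts lacking *Tgm2*, whose background strain is not given in the sources used here; the animals were 6 to 10 weeks old when used. All received the same ID8 *Trp53*-/- *Brca1*-/- mouse ovarian cancer cells under the ovarian bursa, so both groups carry the *Trp53* and *Brca1* deletions in the cancer cells and the host genotype was the only labelled difference. *Tgm2* itself had 14978, 12155 and 13180 normalized counts in WT (tumors 1 to 3, the order kept throughout), against 5853, 6071 and 8157 in knockout tumors, without overlap (log2 difference -1.02, adjusted p = 0.391 from limma). The knockout is in the host, and injected cancer cells can add *Tgm2* RNA to every tumor. The labels call the cell type cancer cells, but these are whole tumors, and immune transcripts in them come from cells of the host. The cancer epithelium was visible in all 6 tumors, with the 10 markers of ovarian cancer epithelium summing to between 61467 and 84205 normalized counts and *Wt1*, a transcription factor of ovarian surface and mesothelial cells, as the most abundant in the mean over all tumors (in WT tumors 2 and 3 *Krt8* and *Krt19* were higher). The labels number the tumors and do not say that each came from a separate mouse, so the spread given here is the spread between tumors. Column sums lay between 32316613 and 37717165 normalized counts, and 1 read was worth between 0.943 and 1.09 of them, so the lowest values below rest on a few reads.

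In a developing B cell the RAG1 and RAG2 proteins cut DNA at recombination signals beside the variable, diversity and joining segments, and the repair enzymes of end joining then fuse 1 of each into an exon (the kappa chain has no diversity segments). The joining segment encodes the last stretch of that exon, with the conserved Trp-Gly or Phe-Gly motif and the framework strand behind it, and RNA splicing carries it on to the constant exons. A later class switch to IgG or IgA replaces the constant region and leaves the joining segment in place. Plasma cells transcribe the finished gene at very high levels, so a joining segment in bulk RNA comes mostly from them and from B cells.

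The segments are printed because they show how short the measured pieces are. The 4 heavy segments lie on chromosome 12 of GRCm38, minus strand, at chr12:113429781-113429833 (*Ighj1*), chr12:113429468-113429515 (*Ighj2*), chr12:113429085-113429132 (*Ighj3*) and chr12:113428514-113428567 (*Ighj4*), each a single coding exon in the GENCODE M21 annotation. Capitals mark TGGGGNNNNGG, the codons of the Trp-Gly-X-Gly motif, and the sequences read 5′ to 3′ on the coding strand.
Ighj1: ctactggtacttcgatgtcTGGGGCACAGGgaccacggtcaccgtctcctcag
Ighj2: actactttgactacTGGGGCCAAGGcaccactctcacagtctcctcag
Ighj3: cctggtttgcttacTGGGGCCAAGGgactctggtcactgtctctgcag
Ighj4: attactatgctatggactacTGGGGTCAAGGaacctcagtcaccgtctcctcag
All 4 held the motif. On either strand it is found in the first 48 bases of 1.47% of the 141685 annotated transcripts of that length or more.

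The kappa segments lie on the plus strand of chromosome 6, at chr6:70722562-70722599 (*Igkj1*), chr6:70722916-70722954 (*Igkj2*), chr6:70723223-70723260 (*Igkj3*), chr6:70723548-70723585 (*Igkj4*) and chr6:70723886-70723923 (*Igkj5*). Here capitals mark TTCGGNNNNGG, the codons of Phe-Gly-X-Gly.
Igkj1: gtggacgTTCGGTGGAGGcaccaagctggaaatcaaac
Igkj2: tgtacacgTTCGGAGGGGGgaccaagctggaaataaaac
Igkj3: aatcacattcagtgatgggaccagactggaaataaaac
Igkj4: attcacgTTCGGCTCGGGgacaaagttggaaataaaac
Igkj5: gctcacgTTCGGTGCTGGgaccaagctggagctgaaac
These letters were in 4 of the 5 and not in *Igkj3*, a segment long regarded as nonfunctional in the mouse. The background share in the first 38 bases of transcripts was 0.257%.

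At 48 to 54 bases for the heavy and 38 or 39 for the kappa segments, each is shorter than the reads of 100 bases. A read over a joining segment therefore also covers variable, constant or intron sequence, and how such reads were assigned decides the values given here. Words of 31 bases are the default unit of kallisto, the program that assigned the reads (the length used is not given in the sources used here). A heavy segment holds 18 to 24 of them and a kappa segment 8 or 9. No such word of any of the 9 segments occurs in an annotated transcript of another gene, although aligned segments are alike, with 62.5% to 75% of bases identical between heavy segments and 68.4% to 84.2% between kappa segments. GENCODE M21 gives *Ighj2* 2 transcripts, which a row for the gene would sum, and does the same for *Igkj2*, *Igkj3* and *Igkj5*. The other starts upstream of the segment, at chr12:113429514-113429567, and is shown because it holds the letters GGTTTTTGT (in capitals), the consensus nonamer of recombination signals. The match is a description, and such signals are cut away from the coding segment when it is joined.
Upstream transcript of Ighj2: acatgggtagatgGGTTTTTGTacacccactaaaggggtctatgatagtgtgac
The nonamer was searched on both strands and is in the first 54 bases of 0.0367% of transcripts. The reads of the 2 *Ighj2* transcripts cannot be separated in the table. The heptamer letters CACTGTG and CACAGTG were in none of the printed sequences.

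*Ighj2*, *Ighj3* and *Ighj4* were chosen by an earlier fit of these tumors, in which they were among the genes with an adjusted p-value under 0.05 and a log2 fold change of at least 1, so their differences are described and not tested. The fit used here applied the same limits to the same tumors. These 3 of the 9 segments were past them again, which restates the choice and is no test of it. In all, 20 genes, or 0.102% of the 19667 tested, were higher in the knockout tumors, against 0 lower. At an unadjusted p-value under 0.05 with the same fold limit 491 genes were higher and 305 lower. Of the segments, *Ighj4* was the closest inside the limits and *Igkj5* the closest outside. All 9 segments passed the filter on low values, *Igkj3* with only 4 tumors above 0.

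*Ighj3* had 9.01, 7.39 and 14.3 normalized counts in WT, against 432, 943 and 333 in *Tgm2* knockout tumors. All knockout tumors lay far above all WT tumors, and knockout tumor 2 was the highest. The group means were 10.2 ± 3.59 and 569 ± 327 (SD, n = 3 tumors per group), a 55.7-fold difference, and the log2 difference was 5.57 (standard error 0.55) on the log2(value + 1) scale used for all log2 differences here. *Ighj2* had 16.9, 22.2 and 35.2 normalized counts in WT, against 500.0, 717 and 279 in the knockout tumors, with a log2 difference of 4.24 (standard error 0.51). Here too the groups were far apart, and the knockout tumors had the same order as for *Ighj3*. *Ighj4* had 26.9, 31.9 and 18.2 against 247, 268 and 474, with a log2 difference of 3.60 (standard error 0.48). Its highest value was in knockout tumor 3, the tumor in which *Ighj2* and *Ighj3* were lowest. *Ighj1* had 25.3, 5.98 and 13.0 in WT, against 82.5, 119 and 44.3 in the knockout tumors. Its log2 difference of 2.49 (standard error 0.70) was the lowest of the heavy segments, and its groups did not overlap either.

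*Igkj5* was the only kappa segment without overlap between the groups, at 8.05, 7.76 and 8.56 normalized counts in WT, against 91.5, 213 and 81.5 in the knockout tumors. Its WT values were almost equal, and the log2 difference was 3.69 (standard error 0.60). *Igkj4* was listed at 0.479, 0 and 14.8 in WT, against 59.4, 106 and 10.6 in the knockout tumors, so knockout tumor 3 lay below WT tumor 3 (log2 difference 3.88, standard error 1.25; 3.13 when WT tumor 2 was omitted and 5.12 when WT tumor 3 was). *Igkj1* was listed at 0.563, 40.3 and 0 against 23.3, 148 and 11.8, where WT tumor 2 exceeded knockout tumors 1 and 3 (log2 difference 3.16, standard error 1.51; from 2.14 without knockout tumor 2 to 4.84 without WT tumor 2). *Igkj2* had 17.5, 15.8 and 17.2 normalized counts in WT, against 15.9, 132 and 14.5 in the knockout tumors. The mean of *Igkj2* was thus raised by knockout tumor 2 alone, and without that tumor its log2 difference went from 0.88 to -0.14. *Igkj3*, the segment that lacks the motif, was at the bottom in the knockout tumors with 3.16, 3.43 and 1.07, and was listed at 0, 0 and 9.43 in the WT tumors. Its mean was lower in the knockout tumors, 2.55 against 3.14, while its log2 difference was 0.62 (standard error 1.06), so the sign depends on the scale. With 1 tumor omitted it lay between 0.06 (WT tumor 1 or 2) and 1.75 (WT tumor 3). With a pseudocount of 0.1 in place of 1 the log2 differences of *Igkj1*, *Igkj3* and *Igkj4*, the segments with values of 0, were 4.64, 2.38 and 5.42. The 5 segments without overlap, all heavy segments and *Igkj5*, compare with 5.18% of all tested genes that had every knockout tumor above every WT tumor, and 5.33% had every one below; since the contrast was known when the segments were chosen, nothing is read from this. In bulk RNA, more cells with a given joined segment and more RNA per cell cannot be told apart.

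**Figure D1:**
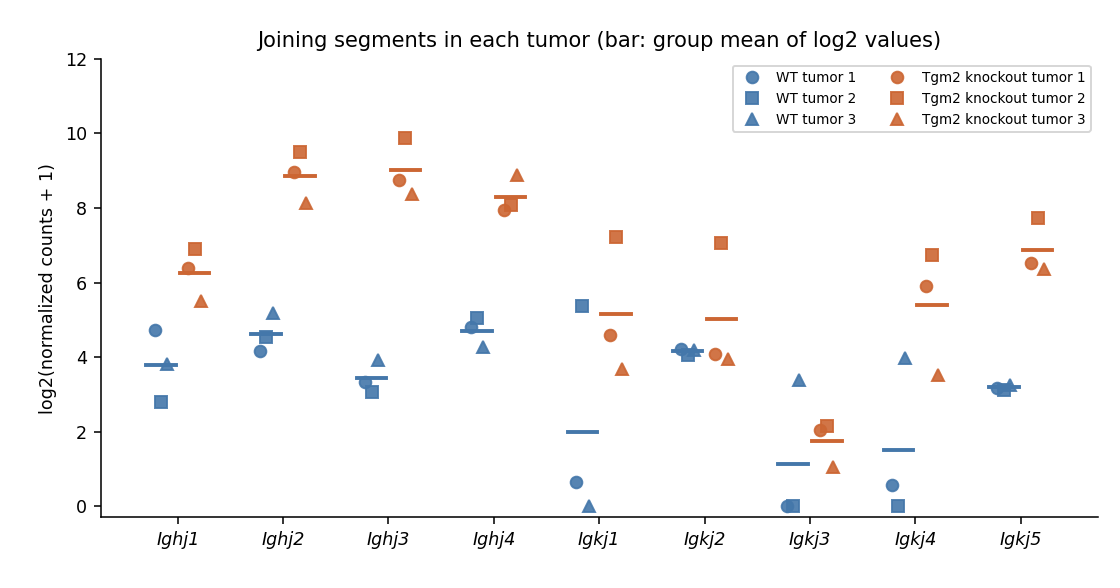
Each of the 9 joining segments on the x axis, with log2(normalized counts + 1) on the y axis; blue points are the 3 WT tumors, orange points the 3 *Tgm2* knockout tumors, shapes mark the tumor number and bars the group mean of the log2 values. The heavy segments and *Igkj5* had every knockout tumor above every WT tumor, while the other 4 kappa segments overlapped, with knockout tumor 2 the highest of all tumors in *Igkj1*, *Igkj2* and *Igkj4*.

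Levels were compared between segments per base of segment, a choice of divisor that bears on the order. In the knockout tumors *Ighj3* had the highest mean, 11.9 normalized counts per base with a range over tumors of 6.94 to 19.6, followed by *Ighj2* with 10.4 (5.81 to 14.9) and *Ighj4* with 6.11 (4.58 to 8.77). *Igkj5* came next with 3.38 (2.14 to 5.60). Then came *Igkj1*, *Igkj4*, *Ighj1* and *Igkj2*, with means of 1.60, 1.55, 1.54 and 1.39. Ranges of neighbours in this order overlapped, except for the last step to *Igkj3* with 0.0671 (0.0282 to 0.0902). In the WT tumors the order was different. *Ighj2*, *Ighj4* and *Igkj2* led with 0.516, 0.476 and 0.431 normalized counts per base, and *Ighj3* had 0.213, below *Ighj1* with 0.279 and *Igkj5* with 0.214. The ranges of these WT neighbours overlapped, so their order is not resolved. Divided instead by the number of 31-base words of each coding segment, an alternative added after the values were seen, the knockout means changed order. *Igkj5* (16.1 per word) then stood above *Ighj4* (13.7), and *Ighj1* (3.56) below *Igkj2* (6.02), with *Ighj3* (31.6) and *Ighj2* (27.7) highest. Both divisors count the coding segment alone, while the row would sum 2 transcripts for some segments. The second transcript holds 24 words for *Ighj2*, 13 for *Igkj2* and 12 for *Igkj5*, in the latter 2 including the coding segment. With it counted these values would be lower, so the order by words and the place of *Ighj2* per base are not resolved.

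**Figure D2:**
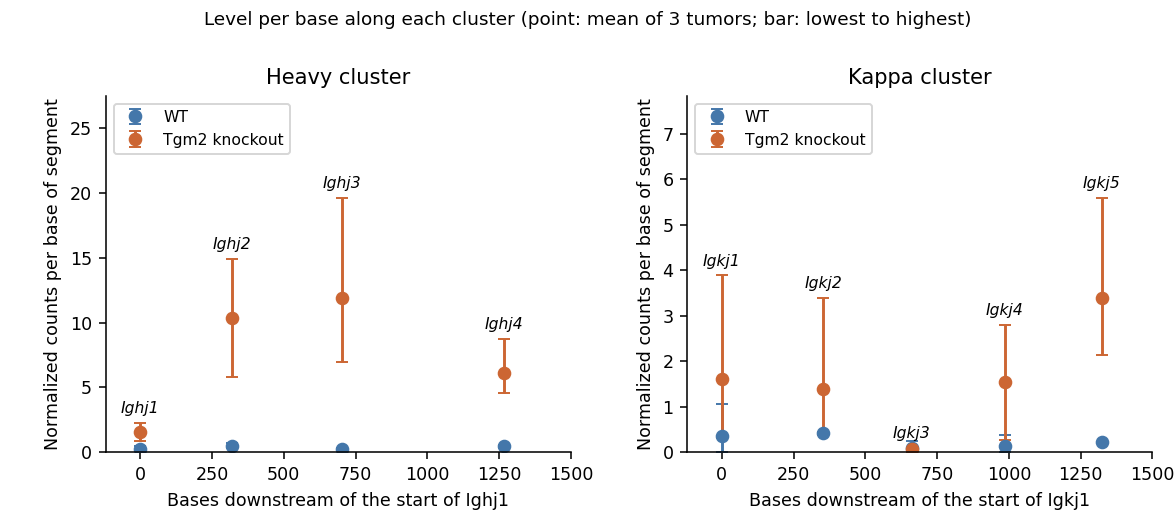
Mean normalized counts per base of segment (y axis; points) with the lowest and highest of 3 tumors (bars), against the distance in bases from the start of the first segment of each cluster (x axis), for WT (blue) and *Tgm2* knockout (orange) tumors. In the heavy cluster the knockout mean was 1.54 at *Ighj1*, 11.9 at *Ighj3* and 6.11 at *Ighj4*, and in the kappa cluster it was highest at *Igkj5*, 1324 bases from *Igkj1*.

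The usage of the heavy segments was described as each segment's share of their summed normalized counts within a tumor, which removes the overall difference in level. The row of *Ighj2* may include reads of its upstream transcript, which is not part of a joined segment. This limits its own share and, through the sum, every heavy share and the heavy sums below. *Ighj3* made up 11.5%, 11.0% and 17.7% of the heavy segments in WT, against 34.2%, 46.1% and 29.5% in knockout tumors. Its share was thus higher in every knockout tumor, by 23.2 percentage points in the means (13.4% ± 3.72 against 36.6% ± 8.53; SD, n = 3). For *Ighj1* the shares were 32.4%, 8.86% and 16.1% in WT, against 6.54%, 5.80% and 3.92%, although its own counts were higher in every knockout tumor than in any WT tumor. Shares sum to 100%, and *Ighj3* was among the segments chosen for their difference in these tumors, so both shares follow in part from that choice. For *Ighj2* the groups overlapped, at 21.6%, 32.9% and 43.6% against 39.6%, 35.0% and 24.7%. *Ighj4* overlapped as well, since it held 41.9% in knockout tumor 3 but 19.6% and 13.1% in knockout tumors 1 and 2, where the WT tumors had 34.5%, 47.3% and 22.5%. The WT shares rest on 78.1, 67.4 and 80.7 summed normalized counts, against 1262, 2047 and 1130 in the knockout tumors, so the WT shares are much the less precise. No interval is given for a share, because only 7 of the 50 segment values above 0 came within 0.1 of a whole number of reads, and estimated counts need not be whole.

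Shares within the kappa segments rest on still fewer reads, with sums of 26.6, 63.8 and 49.9 normalized counts in WT, against 193, 603 and 119 in knockout tumors. *Igkj5* held 30.3%, 12.2% and 17.1% in WT, against 47.3%, 35.3% and 68.2% in the knockout tumors, and was the leading segment in each of the latter. *Igkj2* had a lower share in every knockout tumor, 8.25%, 21.9% and 12.1%, where WT had 65.8%, 24.7% and 34.4%. Among the WT tumors the leading kappa segment differed, *Igkj2* in tumors 1 and 3 and *Igkj1* in tumor 2, where it held 63.2%. The smallest p-value that an exact two-sided permutation test of 3 tumors against 3 allows is 0.1, and no share was tested.

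**Figure D3:**
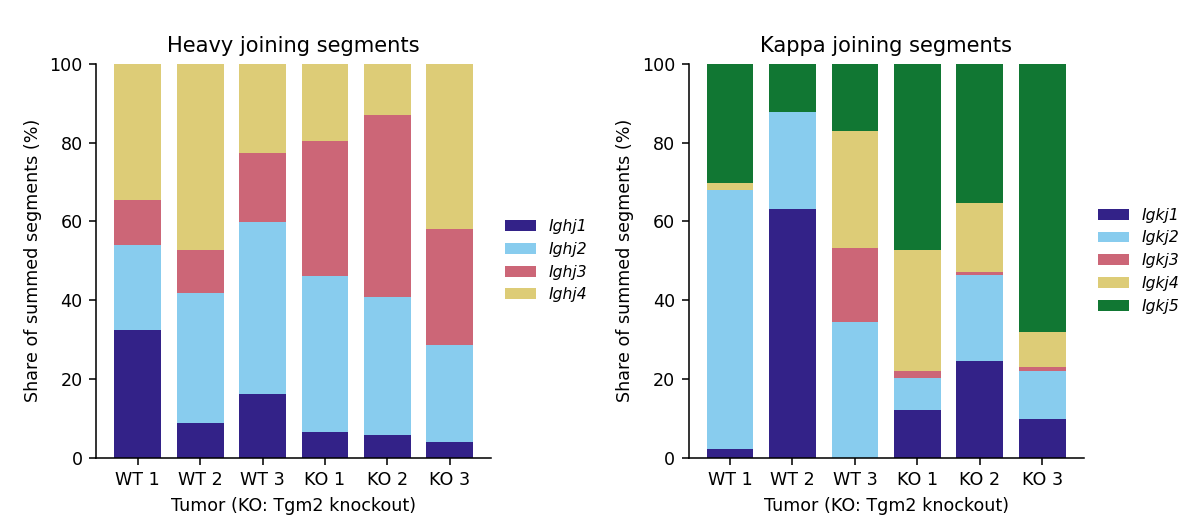
Stacked bars give each joining segment's share (y axis, percent) of the summed normalized counts of the 4 heavy (left) or 5 kappa (right) segments in each tumor (x axis; KO, *Tgm2* knockout). *Ighj3* took 11.0% to 17.7% in WT and 29.5% to 46.1% in knockout tumors, and *Igkj5* 12.2% to 30.3% and 35.3% to 68.2%.

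A joining segment is transcribed as part of a full antibody chain, so its level was set against the constant genes of the same tumor, and the variable genes were then set against them in the same way. These ratios are not corrected for gene length and are compared between tumors only. The summed heavy segments amounted to 0.488, 0.670 and 0.390 per 100 normalized counts of the 8 heavy constant genes in WT, against 0.429, 0.672 and 0.221 in knockout tumors. The groups overlapped, and the log2 difference of the ratio was -0.33 with a spread between tumors of 0.63 (pooled SD, n = 3 per group). It ran from -0.71 without knockout tumor 2 to 0.09 without knockout tumor 3, so its sign rests on single tumors. In the group means the heavy segments were 19.6-fold and the constant genes 23.7-fold higher in the knockout tumors. Set against *Igha*, the constant gene of IgA, in place of all heavy constant genes, the ratio was 1.74, 1.25 and 1.24 in WT, against 0.657, 1.04 and 0.302 in the knockout tumors, without overlap. *Igha* made up 28.1%, 53.8% and 31.3% of the heavy constant counts in WT, against 65.3%, 64.8% and 73.3% in the knockout tumors.

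The kappa segments were lower relative to their constant gene in 2 of the 3 knockout tumors than in any WT tumor. They amounted to 0.300, 0.965 and 0.341 per 100 of *Igkc*, the kappa constant gene, in WT, against 0.149, 0.399 and 0.0398 in the knockout tumors, with the summed segments 6.52-fold higher in the group means and *Igkc* 19.3-fold. The groups overlapped through knockout tumor 2, and without that tumor the summed segments were 3.34-fold higher. The log2 difference of this ratio, -1.79, ran from -2.58 without knockout tumor 2 to -0.92 without knockout tumor 3. Knockout tumor 3 had the most *Igkc* of all tumors, 300054 normalized counts, and the fewest kappa segments of the knockout tumors. There were 294, 106 and 162 heavy per 100 kappa segment counts in WT, against 653, 339.8 and 946 in knockout tumors. Every knockout value was above every WT value, which follows in part from the choice of *Ighj2*, *Ighj3* and *Ighj4* for their difference in these tumors. These counts are not corrected for segment length, so they are compared between tumors only and do not rank the chains within a tumor.

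The ratio of variable to constant genes spread less over the 6 tumors than that of joining segments. The 85 listed heavy variable genes summed to between 13.5 and 19.7 per 100 of the heavy constant genes over the 6 tumors, a highest-to-lowest ratio of 1.46, where that of the heavy joining segments was 3.04, and every knockout tumor (18.5 to 19.7) lay above every WT tumor (13.5 to 16.5). The 83 kappa variable genes summed to between 42.7 and 48.6 per 100 of *Igkc*, a highest-to-lowest ratio of 1.14, and that of the kappa joining segments was 24.2. The joining segments are much lower in counts than the variable genes, and in what measure this and read assignment set their wider spread was not tested.

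**Figure D4:**
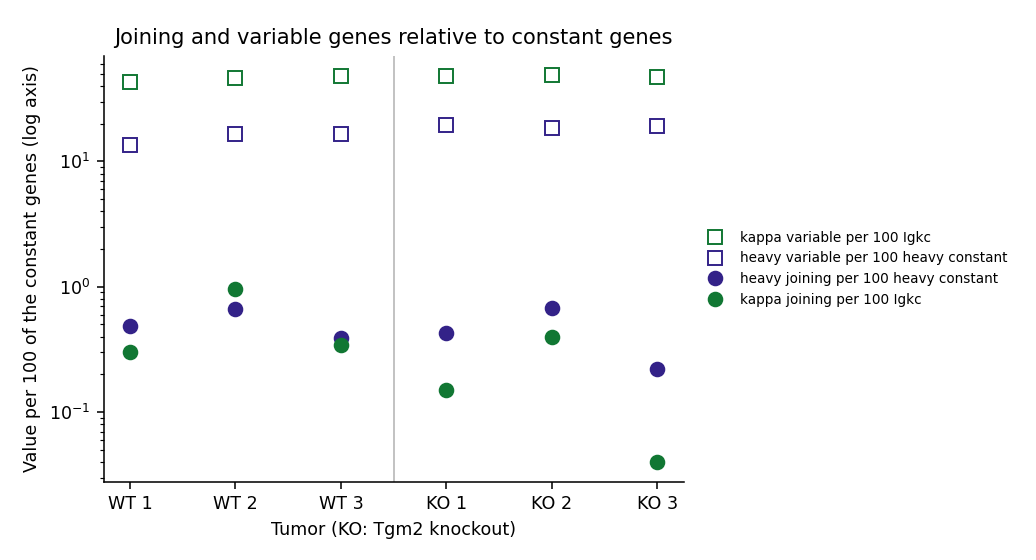
Summed joining segments (filled circles) and summed variable genes (open squares) per 100 normalized counts of the constant genes of the same chain (y axis, log scale) in each tumor (x axis; KO, *Tgm2* knockout), heavy in dark blue and kappa in green. The variable genes stayed within 13.5 to 19.7 (heavy) and 42.7 to 48.6 (kappa), while the kappa joining segments ranged from 0.0398 in knockout tumor 3 to 0.965 in WT tumor 2.

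Genes of the enzymes that make the joints were described beside the segments. Of 18 genes of V(D)J cleavage and end joining, 16 were tested, and 0 were higher and 0 lower in the knockout tumors in limma with Benjamini-Hochberg adjustment; 0 had an unadjusted p-value under 0.05. Since 0.102% of all tested genes were higher and 0 lower, a count of 0 in a list of this size is not a result about the list. Their median log2 difference was -0.06, beside -0.03 over all tested genes, and the values ran from -1.05 (*Rag2*) to 0.22 (*Xrcc5*, the Ku80 subunit that binds broken ends). The value of *Rag2* rests on single tumors and lay between -2.23 (WT tumor 2 omitted) and -0.06 (WT tumor 3 omitted). *Rag2*, the lymphocyte partner of the RAG nuclease, had 5.68, 0 (as listed) and 19.2 normalized counts in WT, against 3.79, 0 and 2.15 in the knockout tumors. *Rag1* and *H2afx* were not analysed here. *Dntt*, the terminal transferase that adds bases at the joints, had 8.02, 8.17 and 3.97 against 2.53, 4.81 and 16.4. No value of either gene was above 19.2 normalized counts. *Hmgb1*, *Xrcc6* and *Hmgb2*, which many cell types express, were the most abundant of these genes, with log2 differences of 0.05, -0.05 and -0.04.

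Of 11 early B cell genes 9 were tested, with 0 higher and 0 lower in limma, beside 0.102% and 0% of all tested genes. *Vpreb2* and *Igll1* were not analysed here. The median log2 difference of the 9 was 0.53, beside -0.03 over all tested genes, and 8 of the 9 were positive, all but *Kit* (-0.29). *Sox4*, the most abundant, had a log2 difference of 0.06. Which cells of a whole tumor expressed these genes was not tested, so the list is no measure of early B cells. Every knockout tumor was above every WT tumor for 2 of the 9, *Vpreb3* and *Flt3* (log2 difference 1.43), beside 5.18% of all tested genes. *Vpreb1*, part of the surrogate light chain of pre-B cells, had 4.24, 10.6 and 10.6 normalized counts in WT, against 9.59, 14.4 and 5.32 in the knockout tumors. *Vpreb3*, related to it and also expressed in some mature B cells, was higher in every knockout tumor, at 200.2, 266 and 156 against 14.1, 55.4 and 30.1, and did not pass adjustment over all genes (log2 difference 2.77, adjusted p = 0.373 from limma). *Vpreb3* and *Flt3* are named after their values were seen.

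**Figure D5:**
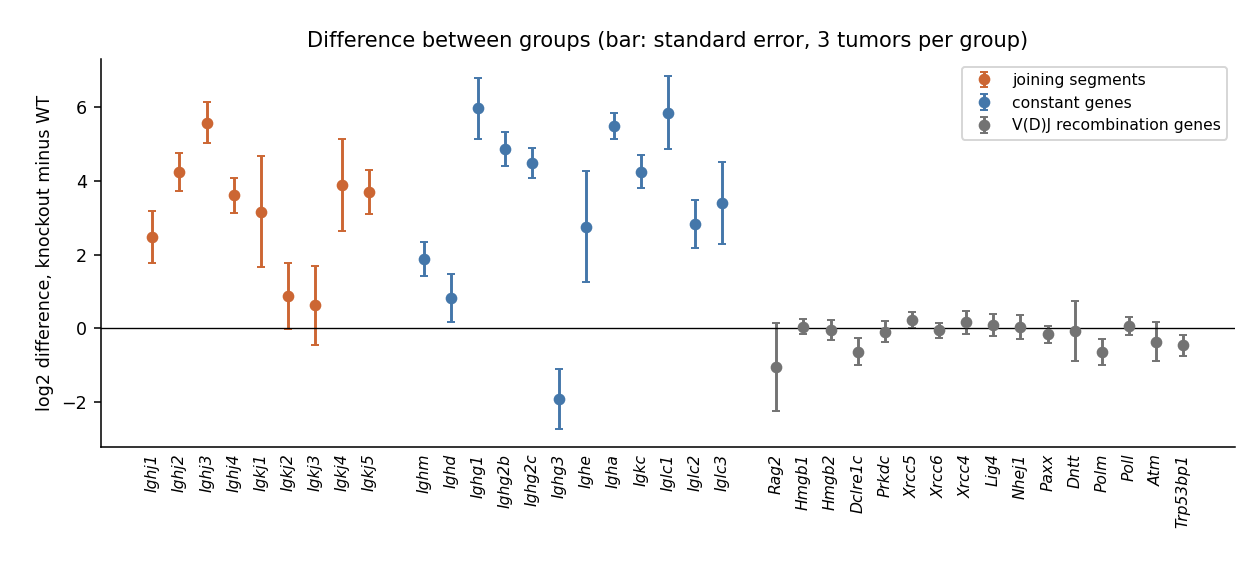
Log2 difference between *Tgm2* knockout and WT tumors (y axis; points) with its standard error (bars, 3 tumors per group) for the joining segments (orange), the antibody constant genes (blue) and the V(D)J recombination genes (grey). The joining segments ran from 0.62 (*Igkj3*) to 5.57 (*Ighj3*), and the recombination genes from -1.05 to 0.22.

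The 10 genes outside the joining segments whose profile over the 6 tumors was nearest to the mean profile of the 9 segments were *Gm6563*, *Dpep2nb*, *Plin5*, *Dpy19l2*, *Prom2*, *Ighv1-14*, *Gm43552*, *Shisal2a*, *Mc5r* and *Gm49394*. Nearness was the root mean square difference of centred log2 values, and it ran from 0.33 for *Gm6563* to 0.59 for *Gm49394*. These genes are low, with means over all tumors of 2.33 to 27.6 normalized counts, and 1 of them is an immunoglobulin gene. Taken for the heavy segments alone, a choice made after the values were seen, the nearest 10 included *Ighg2c* (0.52), *Mzb1* (0.55), *Pou2af1* (0.60) and *Jchain* (0.60), genes of antibody-secreting cells, and also *Slpi* (0.44) and the adipokine gene *Lep* (0.58). For the kappa segments alone, likewise chosen afterwards, the nearest was *Plin5* (0.39), which coats lipid droplets, and 0 of the 10 were immunoglobulin genes.

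Markers of other cells are given beside these values, and no list was tested as a whole. Over all tested genes 47.3% had a positive log2 difference and 0.102% were past the limits as higher. The median log2 difference was 1.44 for plasma cell, 0.82 for B cell, 0.94 for T cell and 1.63 for white adipocyte markers, beside -0.03 over all tested genes. Of 15 plasma cell markers, 14 had a positive log2 difference and 3 were past the limits, *Jchain*, *Mzb1* and *Pou2af1*; the list summed to 22090, 22815 and 19172 normalized counts in WT, against 68770, 90399 and 97021 in knockout tumors, with *Jchain* the most abundant in the mean over all tumors (in WT *Xbp1* and *Creb3l2* were higher) and 0 markers at 0. Of 15 B cell markers 13 were positive. The most abundant in the mean over all tumors, *Spib*, was not, at 1175, 673 and 837 in WT, against 554, 377 and 788 in knockout tumors, with overlap (log2 difference -0.67). *Cd79a*, a chain of the B cell receptor, was past the limits. That call was kept in 4 of the 14 alternative fits and was lost whichever tumor was omitted. All 15 T cell markers were positive with 0 past the limits, and their sums were 2858, 1816 and 1735 against 2947, 3326 and 5333. All 21 white adipocyte markers were positive with 1, *Lep*, past the limits, and they summed to 59597, 75748 and 47297 in WT, against 71438, 267433 and 157678 in knockout tumors. The adipocyte sum was highest in knockout tumor 2, and so were 7 of the 9 joining segments, all but *Ighj4* (knockout tumor 3) and *Igkj3* (WT tumor 3). *Lpl* was the most abundant adipocyte marker in the mean over all tumors, although *Cfd* and *Scd1* exceeded it in knockout tumor 2, and 0 of the adipocyte markers were at 0 in any tumor. With the mean of the adipocyte markers as a covariate, the log2 differences of *Ighj1* to *Ighj4* were 2.62, 3.90, 4.82 and 3.24. Those of *Igkj1* to *Igkj5* were -1.02, -1.70, 1.30, 4.21 and 2.66, so *Igkj1* and *Igkj2* changed sign, *Ighj2*, *Ighj3*, *Ighj4* and *Igkj5* had a smaller difference than without the covariate, and *Ighj1*, *Igkj3* and *Igkj4* a larger one. Of the 10 general leukocyte markers 9 were positive, of 9 lymphoid stroma markers 6, of 10 ovarian cancer epithelium markers 3 and of 5 red blood cell markers 0, with 0 past the limits in each list. The epithelium markers summed to 71886, 84205 and 83982 normalized counts in WT, against 65881, 61467 and 70337 in knockout tumors. Every knockout sum was below every WT sum. What part these cells have in the joining segment values was not tested.

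The calls of the 3 heavy segments depended on the fit and on single tumors. Their direction was the same in every fit run, but several of these fits could not change it. All 3 calls were lost without the variance trend, with the replicate number as a block and with the adipocyte covariate, and that of *Ighj4* was lost with quantile normalization. *Ighj3* stayed past the limits when knockout tumor 1, knockout tumor 3 or WT tumor 3 was omitted, and fell short without knockout tumor 2, WT tumor 1 or WT tumor 2. *Ighj2* and *Ighj4* fell short whichever of the 6 tumors was omitted. With 1 tumor omitted the log2 differences ran from 5.13 to 5.88 for *Ighj3*, from 3.92 to 4.60 for *Ighj2* and from 3.31 to 3.78 for *Ighj4*. *Iglj1*, a lambda joining segment outside the 9, was listed at 0 throughout the WT group, against 60.1, 173 and 3.25 in knockout tumors.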

How the data were processed

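The authors sequenced poly(A) libraries in paired reads of 100 bases and quantified transcripts with kallisto (0.46.2 on GRCm38 per the submitters' processing notes), used biomaRt to pass from transcripts to genes, dropped lowly expressed genes and divided by DESeq2 size factors. The deposited table is labelled TPM, but its values are treated as a signal, estimated counts after size-factor normalization: they are not whole, their sums differ between tumors, and recomputed size factors were 1.00 for all 6 tumors.

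Values were analysed as log2(value + 1) in limma 3.58.1 (R 4.3.3) with trended empirical Bayes moderation and Benjamini-Hochberg adjustment over 19667 genes (3 or more tumors at 1 or above). Other values came from Python 3.11.15. Genes were named by a rule: the 9 segments, *Tgm2*, constant genes, recombination and early B cell genes, the most abundant markers and the 10 nearest profiles; not all are printed, some named by the rule are not reported here, and no heavy diversity or T cell receptor joining segment is in the table used here. The value of 1 read came from the steps between low values of 4097 genes with 1 transcript, of which between 95.2% and 99.1% were within 0.1 reads of a whole number; over all genes 65.9% of values under 20 reads were, so no count test was run. Positions and sequences are from GENCODE M21. Alternatives changed the pseudocount, filter, scaling, block, trend, covariate and tumors. The fit was tested on simulated data. Segments, lists and tests were chosen with earlier results of these data known.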

Additional observations from a re-analysis of the deposited data

How the results depend on the processing

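Over 14 alternative fits, 122 of 125 log2 differences of joining segments kept their direction. A changed filter, variance trend or block cannot alter a log2 difference in this design, and the scaling used the same factor for every tumor. Those fits therefore could not change a direction, and the count is no measure of robustness. The count of segments past the limits (3) was 0 without the variance trend, with the replicate number as a block and with the adipocyte covariate, 2 with quantile normalization (*Ighj4* lost; 16 genes higher in all) and 0 to 1 when 1 tumor was left out; for all genes (20 higher) the trend, block, covariate and omissions gave 4, 5, 0 and 2 to 14 (11 without knockout tumor 1 or 2, and 7, 2 and 13 without WT tumors 1, 2 and 3), and 0 to 1 lower (1 without WT tumor 1). The labels do not say whether replicate numbers pair the tumors. Deviations of same-numbered tumors from their group means correlated at -0.20, 0.28 and -0.31 across genes. With 3 tumors per group these values cannot decide whether the tumors were paired. With the adipocyte covariate the log2 difference of *Ighj3* was 4.82, of *Igkj5* 2.66, of *Igkj1* -1.02 and of *Igkj2* -1.70, and *Igkj2* ran from -0.14 (without knockout tumor 2) to 1.42 without 1 tumor. With a pseudocount of 0.1 *Igkj1* was 4.64, *Igkj4* 5.42 and *Igkj3* 2.38, and *Igkj3* was not tested with a filter of at least 5. The share difference of *Ighj2*, 0.401 points, was -0.399 per base and ran from -5.14 to 5.87 without 1 tumor (below 0 without WT tumor 1 or knockout tumor 1 or 2), that of *Igkj1* from -17.2 to 14.4 (above 0 without WT tumor 2) and that of *Igkj3* from -8.41 to 1.03 (above 0 without WT tumor 3). Against *Igha* the heavy ratio differed by -1.24 in log2. The V(D)J recombination list had 0 genes past the limits in all 14. The cause of these changes was not tested. Rescaling cannot move a share within a tumor, so it was not run for shares. The number of tumors and, in the WT group, sums under 100 normalized counts limit every share.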

Other observations

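Red blood cell genes differed widely between tumors of the same group. *Hbb-bs*, an adult beta globin gene, had 706, 26293 and 4628 normalized counts in WT, against 3035, 6254 and 645 in knockout tumors. WT tumor 2 held the highest value.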
